A study of Mus musculus with 30 samples.

Results

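The genes of the MHC class II system, 10 in number, were followed through blood platelets and peripheral blood mononuclear cells (PBMCs) of mice with and without B16F10 melanoma. The 10 members were taken by gene symbol from the 54532 Ensembl genes of the count tables. They are *H2-Aa*, *H2-Ab1* and *H2-Eb1*, which encode chains of the classical class II molecules, *Cd74*, *H2-DMa*, *H2-DMb1*, *H2-DMb2*, *H2-Oa*, *H2-Ob* and *Ciita*. All 10 had counts in every library and all 10 passed the filter on low counts in each comparison.

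MHC class II molecules present peptides from engulfed or internalised proteins to CD4+ T cells. They are made chiefly by B cells, dendritic cells and macrophages, and their synthesis is switched on by the transactivator CIITA, which docks on promoter-bound RFX, CREB and NF-Y proteins at short conserved boxes. The invariant chain CD74 guards the groove of a new class II molecule until the endosome, where H2-DM exchanges its remnant for peptide and H2-O, found mostly in B cells, restrains H2-DM. Platelets have no nucleus and carry RNA received from megakaryocytes.

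All animals were C57BL/6 mice, and no genetic change was described for any group. Mice of C group, the negative control, received 100 µl of HBSS (a buffered saline) under the skin of the flank. Mice of S group received a suboptimal inoculum of 2000 B16F10 cells in the same saline and had no visible tumor when blood was taken on day 14, while mice of O group received the optimal inoculum of 100000 cells and had palpable tumors. B16F10 is an established mouse melanoma line of C57BL/6 origin. The methods describe the animals as female and 6 to 8 weeks old at the start. Each group gave 5 platelet libraries and 5 PBMC libraries, 30 in all. Each was made, by the labels, from the RNA of 3 to 10 mice (the methods give slightly different numbers for 2 platelet pools of S group), so each error below describes the spread between pools. By the labels, platelet pools held 10 mice in S group, 3 to 5 in O group and 5 or 10 in C group. Pool size and group therefore cannot be told apart between S and O group in platelets. By the inoculum used, pools of S group can include mice in which no tumor would have formed.

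Total counts on genes ran from 12259036 to 25360080 in the platelet libraries and from 13390983 to 15973449 in the PBMC libraries. Levels are CPM (counts scaled to the library size) after TMM normalization over all 30 libraries. The platelet markers identified the platelet libraries, as *Pf4*, the gene of platelet factor 4, had 8173 ± 4857 CPM (SD, n = 15) there and 295.5 ± 255.6 CPM (SD, n = 15) in PBMC libraries. Platelet O replicate 1 stood apart, with 39.0% of its counts on hemoglobin genes, the lowest TMM factor (0.386) and a summed level of 5078 CPM over 10 neutrophil genes, against 229.2 to 1065 CPM in the other 14 platelet libraries. Platelet O replicate 5 had the highest TMM factor (1.01) of its tissue. In bulk RNA, fewer cells of a type and less RNA per cell cannot be told apart.

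Of the members, 8 lie within 224.3 kb of chromosome 17 in GRCm38, between positions 34092340 and 34316674. *Ciita* lies on chromosome 16 (10480059 to 10528418). *H2-Eb1*, *H2-Oa*, *H2-DMa* and *Ciita* overlap annotated genes on the opposite strand (*Gm20513*, *BC051537*, *Brd2* among others, and *Dexi*). Whether the counting used strand is not given in the sources used here, so reads of such partners cannot be told apart. *H2-DMb1* and *H2-DMb2* are near copies: their first annotated transcripts were identical at 93.9% of 1255 aligned bases, and 13.7% of the stretches of 100 bases in *H2-DMb1* also occur in *H2-DMb2*, so how their reads were split is uncertain.

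RefSeq promoter windows (GRCm38.p6, 250 bases before to 50 after the start) were at hand for 7 of the 10 members and not for *H2-Ab1*, *Cd74* and *Ciita*. They were searched for letters of the conserved X and Y boxes through which CIITA acts, and stretches of 4 members are shown, those of genes that were higher in S than in O group in platelets and whose stretch lies outside exons of the GENCODE annotation. *H2-DMb1* and *H2-Oa*, which hold matches and were higher too, are not shown because their stretches overlap annotated exons. Capitals mark AAC followed, after 3 bases of any kind, by TGATG (in the X box), and TGATTGG (the Y box). These letters were read from these promoters and then searched on both strands. The 2 patterns do not overlap each other in these stretches.
H2-Eb1 (chr17:34305768-34305822, plus strand): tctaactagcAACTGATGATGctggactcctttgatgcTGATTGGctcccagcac
H2-DMb2 (chr17:34145118-34145173, plus strand): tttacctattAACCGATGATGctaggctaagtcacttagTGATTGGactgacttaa
H2-Ob (chr17:34238810-34238862, plus strand): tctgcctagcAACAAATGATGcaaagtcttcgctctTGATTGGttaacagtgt
H2-Aa (chr17:34287857-34287923, minus strand): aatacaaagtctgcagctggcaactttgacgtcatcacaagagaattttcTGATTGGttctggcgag
The Y letters were in 6 of the 7 members, all but *H2-DMa*, and in 7.82% of all 32851 promoters of the table. The X letters were in 4 members and in 0.615% of all promoters. X letters followed by Y letters at 10 to 30 bases stood in 6 promoters of the whole table, 4 of them those of *H2-Eb1*, *H2-DMb1*, *H2-DMb2* and *H2-Ob*. As the patterns were taken from the members, these shares are a description and no test was made.

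Scaled per length as TPM, *Cd74* was the highest member in both blood fractions, with 4249 ± 1392 TPM in PBMC and 604.8 ± 322.9 TPM in platelets (SD over 15 libraries). The classical chains followed. In PBMC the levels were 1134 ± 356.0 TPM for *H2-Eb1*, 1011 ± 302.5 TPM for *H2-Ab1* and 612.6 ± 196.7 TPM for *H2-Aa*, and in platelets they were 243.8 ± 95.2 TPM for *H2-Eb1*, 120.0 ± 46.9 TPM for *H2-Aa* and 117.2 ± 66.9 TPM for *H2-Ab1*. *H2-Eb1* and *H2-Ab1* in PBMC, and *H2-Aa* and *H2-Ab1* in platelets, differed by less than their spread. The length used was that of all annotated exons of a gene joined, as 1944 bases for *H2-Eb1* and 3798 for *H2-Aa*. In CPM the PBMC means were 640.0 for *H2-Ab1*, 568.4 for *H2-Aa* and 540.8 for *H2-Eb1*, so the order depends on the length scaling. The peptide editors, their inhibitors and *Ciita* were lower, from 327.3 ± 106.1 TPM (*H2-DMb2*) to 57.2 ± 18.9 TPM (*Ciita*) in PBMC and from 51.2 ± 29.0 TPM (*H2-DMb2*) to 14.5 ± 10.9 TPM (*H2-DMb1*) in platelets. Below *H2-DMb2*, the platelet TPM levels followed in the order *H2-Ob*, *H2-Oa*, *H2-DMa*, *Ciita* and *H2-DMb1*, and each differed from the next by less than their SD.

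Platelets held less of most members than PBMCs, at TMM scaling. With group as a covariate, 8 of the 10 members were lower in platelets at an adjusted P under 0.05 by edgeR's quasi-likelihood test, beside 81% of all genes called (45.2% lower). The largest differences were those of *H2-DMb1*, with a log2 fold change of -1.76 ± 0.16 (SE, adjusted P = 2.97e-11), *H2-Ab1* (-1.40 ± 0.16) and *H2-Ob* (-1.20 ± 0.13). *H2-Eb1* (-0.45 ± 0.12, adjusted P = 0.00086) and *H2-Aa* (-0.57 ± 0.11) differed less, so the 2 chains that pair in the I-A molecule, encoded by *H2-Aa* and *H2-Ab1*, were not lower by the same amount. *H2-Oa* had -0.17 ± 0.10 (adjusted P = 0.103) and *Ciita* 0.03 ± 0.12 (adjusted P = 0.836). Without TMM factors every gene's log2 difference shifts by -1.25, and the platelet mean of *Ciita* is then 44.8% of the PBMC mean, in place of 101.8%.

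**Figure D1:**
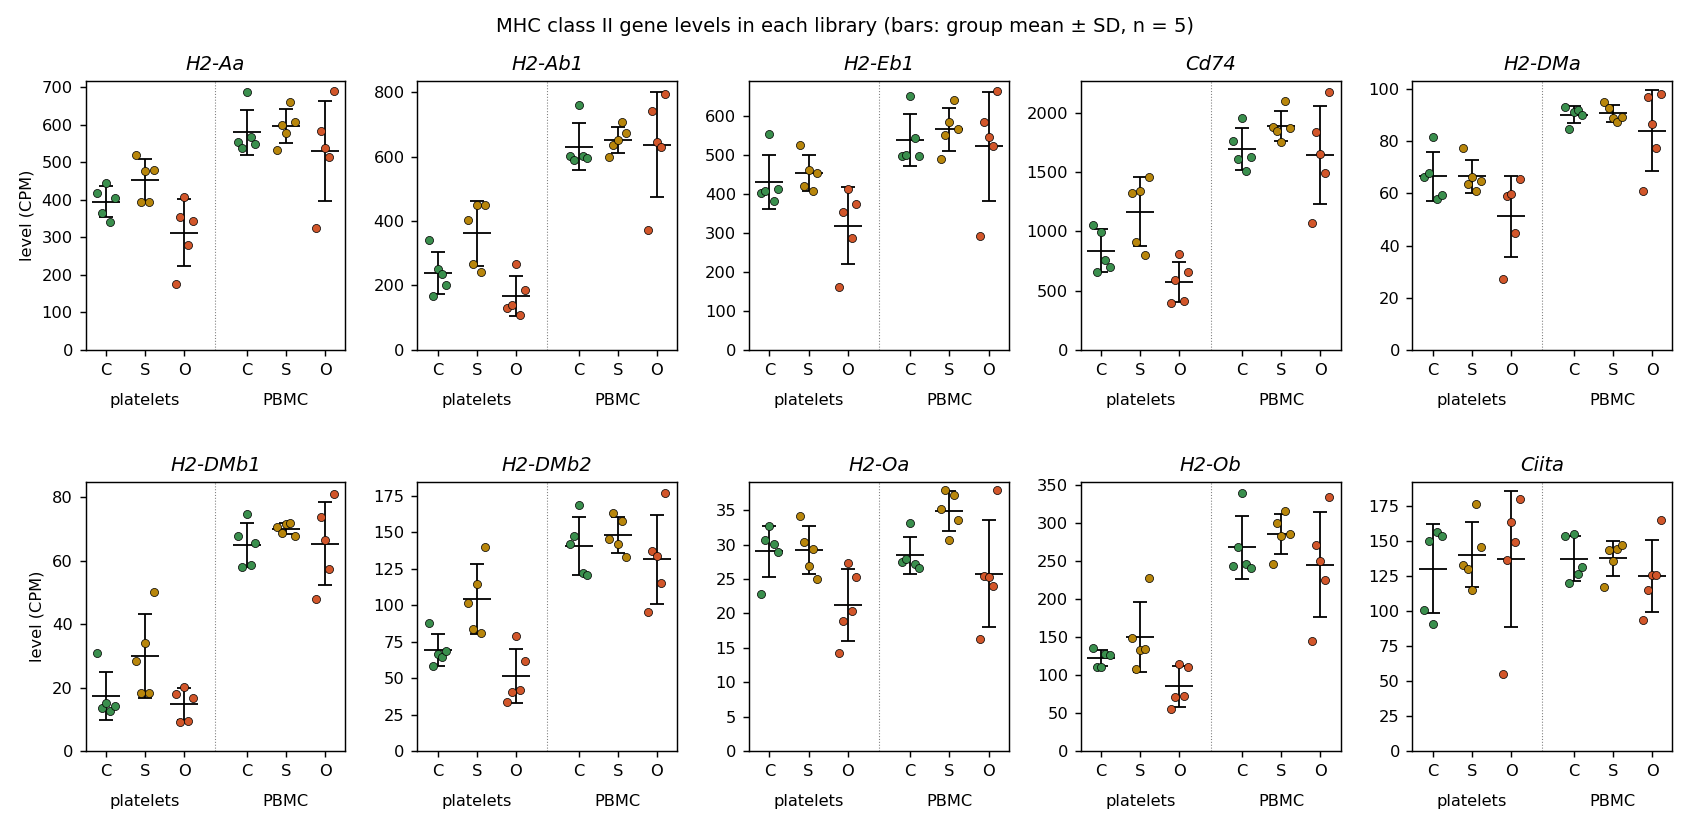
Level of each MHC class II gene (CPM after TMM normalization, linear axes from 0) in every platelet and PBMC library, by group (C, S and O). Points are libraries in replicate order from left to right, and bars give the mean ± SD of 5 libraries. In platelets the S group means lie above the O group means for every gene, with *H2-DMb2* the one gene whose S and O libraries do not overlap, while PBMC groups overlap for all 10.

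In platelets the mean level was highest in S group for 9 of the members, all but *H2-DMa*, and lowest in O group for 9, all but *Ciita*. The beta chain of I-A, *H2-Ab1*, had 341.0, 168.8, 251.3, 234.5 and 202.1 CPM in C group, 402.2, 265.6, 449.0, 241.8 and 450.0 CPM in S group, and 131.3, 140.1, 265.2, 108.4 and 185.8 CPM in O group (replicates 1 to 5). Replicates 1, 3 and 5 of S group lay above all C and O libraries, and replicates 2 and 4 lay among those of C group. The difference between S and O was 1.18 ± 0.30 (log2, SE) at an unadjusted P of 0.00201 (adjusted P = 0.225, edgeR). That between S and C was 0.63 ± 0.25 (unadjusted P = 0.0239, adjusted P = 0.752), and O lay below C by an estimate that missed the threshold (-0.57 ± 0.29, unadjusted P = 0.0691).

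*H2-Aa*, the alpha chain of the same molecule, differed less. Its levels were 418.1, 365.8, 444.1, 341.6 and 404.4 CPM in C group, 518.2, 393.6, 475.2, 393.1 and 479.1 CPM in S group, and 175.3, 353.0, 408.5, 278.7 and 344.0 CPM in O group. S and C libraries overlapped (0.22 ± 0.18 log2, unadjusted P = 0.219), whereas S exceeded O by 0.61 ± 0.23 (unadjusted P = 0.0219, adjusted P = 0.309). *H2-Eb1*, the beta chain of I-E, had means of 430.4 ± 68.9 CPM in C, 453.5 ± 46.5 CPM in S and 317.3 ± 98.7 CPM in O group (SD, n = 5). It too passed the unadjusted threshold between S and O (0.59 ± 0.24 log2, unadjusted P = 0.032, edgeR) and not between S and C (0.10 ± 0.18, unadjusted P = 0.584). The I-E alpha chain gene of C57BL/6 mice is not functional, so *H2-Eb1* RNA in this strain makes no surface I-E.

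*Cd74*, which encodes the invariant chain and lies on chromosome 18 (60803848 to 60812652 in GRCm38), had 1058, 661.2, 998.9, 758.9 and 702.3 CPM in C group, 1327, 909.8, 1341, 798.3 and 1458 CPM in S group, and 399.9, 587.8, 806.7, 414.3 and 653.8 CPM in O group. The same 3 pools of S group (replicates 1, 3 and 5) were above every other platelet library, and 1 library of O group (replicate 3) lay above the lowest of S group. *Cd74* differed by 1.09 ± 0.28 (log2, SE) between S and O (unadjusted P = 0.00213, adjusted P = 0.225) and by -0.60 ± 0.27 between O and C (unadjusted P = 0.0467, adjusted P = 0.91). Between S and C the value was 0.51 ± 0.25 (unadjusted P = 0.055).

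The peptide editor H2-DM pairs the product of *H2-DMa* with that of *H2-DMb1* or *H2-DMb2*. *H2-DMb2* had 87.8, 58.3, 66.7, 64.2 and 68.7 CPM in C group, 101.6, 83.9, 114.8, 80.7 and 139.7 CPM in S group, and 33.7, 40.3, 79.2, 42.0 and 61.4 CPM in O group. Every S library exceeded every O library. Among all genes tested, 4.05% had S and O libraries that did not overlap (1.5% with S above). *H2-DMb2* was the member with the smallest P between S and C (0.63 ± 0.19 log2, unadjusted P = 0.00545, adjusted P = 0.746) and between S and O (1.08 ± 0.27, unadjusted P = 0.00166, adjusted P = 0.225), and it passed the unadjusted threshold in both whichever library was left out.

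*H2-DMb1*, its near copy, had the lowest CPM level of the 10 in platelets. It held 28.3, 18.3, 34.2, 18.3 and 50.1 CPM in the S libraries, against 9.14 to 20.3 CPM in O group and 12.6 to 30.9 CPM in C group, where replicate 1 was far above the others (15.3 CPM at most). *H2-DMb1* rose by 0.83 ± 0.32 (log2, SE, unadjusted P = 0.0205) against C group and by 1.08 ± 0.35 (unadjusted P = 0.0096) against O group. *H2-DMa* was at 66.5 ± 6.4 CPM in S, at 66.6 ± 9.4 CPM in C and at 51.2 ± 15.5 CPM in O group (SD, n = 5). Its differences did not pass the threshold (0.03 ± 0.15 for S against C, 0.45 ± 0.21 with unadjusted P = 0.0562 for S against O).

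The editor inhibitor H2-O is built from *H2-Oa* and *H2-Ob*. *H2-Ob* had 136.0, 110.6, 111.0, 127.1 and 126.8 CPM in C group, 148.9, 108.0, 132.5, 133.7 and 228.0 CPM in S group, and 55.1, 71.0, 115.0, 72.7 and 110.4 CPM in O group. S replicate 5 stood high, S replicate 1 lay above all C libraries too, and the remaining S libraries were within or below the range of C group. *H2-Ob* differed between S and O (0.89 ± 0.27 log2, unadjusted P = 0.00669) and between O and C (-0.58 ± 0.22, unadjusted P = 0.0198), and not between S and C (0.34 ± 0.21, unadjusted P = 0.121). *H2-Oa* averaged 29.2 ± 3.5 CPM in S, 29.0 ± 3.7 CPM in C and 21.2 ± 5.2 CPM in O group (SD, n = 5), so that S against O (0.52 ± 0.19, unadjusted P = 0.0182) and O against C (-0.50 ± 0.19, unadjusted P = 0.0225) passed the threshold and S against C (0.04 ± 0.15) did not.

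*Ciita*, the transactivator of these genes, showed no such order. In platelets it had 100.9, 149.9, 90.7, 156.3 and 153.5 CPM in C group, 132.9, 130.3, 114.8, 176.7 and 145.4 CPM in S group, and 54.9, 136.6, 163.8, 149.1 and 180.1 CPM in O group. The 3 groups overlapped, and the highest and the lowest library were both in O group. The log2 differences were 0.14 ± 0.19 (S against C), 0.11 ± 0.27 (S against O, unadjusted P = 0.701) and 0.02 ± 0.28 (O against C).

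Counted over the members, 3 of 10 were higher in S than in C group at an unadjusted P under 0.05 (*H2-Ab1*, *H2-DMb1* and *H2-DMb2*) and none lower, beside 6.42% of all genes tested (4.29% higher). Between S and O group 8 were higher and none lower, beside 13.9% of all genes (7.23% higher). Between O and C group 3 were lower (*Cd74*, *H2-Oa* and *H2-Ob*) and none higher, beside 4.79% of all genes (2.17% lower). The median log2 difference of the 10 members was 0.28, 0.75 and -0.49 in the 3 comparisons, where that of all genes tested was -0.01, -0.01 and -0.01. No member had an adjusted P under 0.05 by edgeR in any of them (lowest 0.746, 0.225 and 0.91). Of all genes tested, 1 (0.00754%), 0 and 0 did. The 3 comparisons share libraries in pairs and are not independent.

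**Figure D2:**
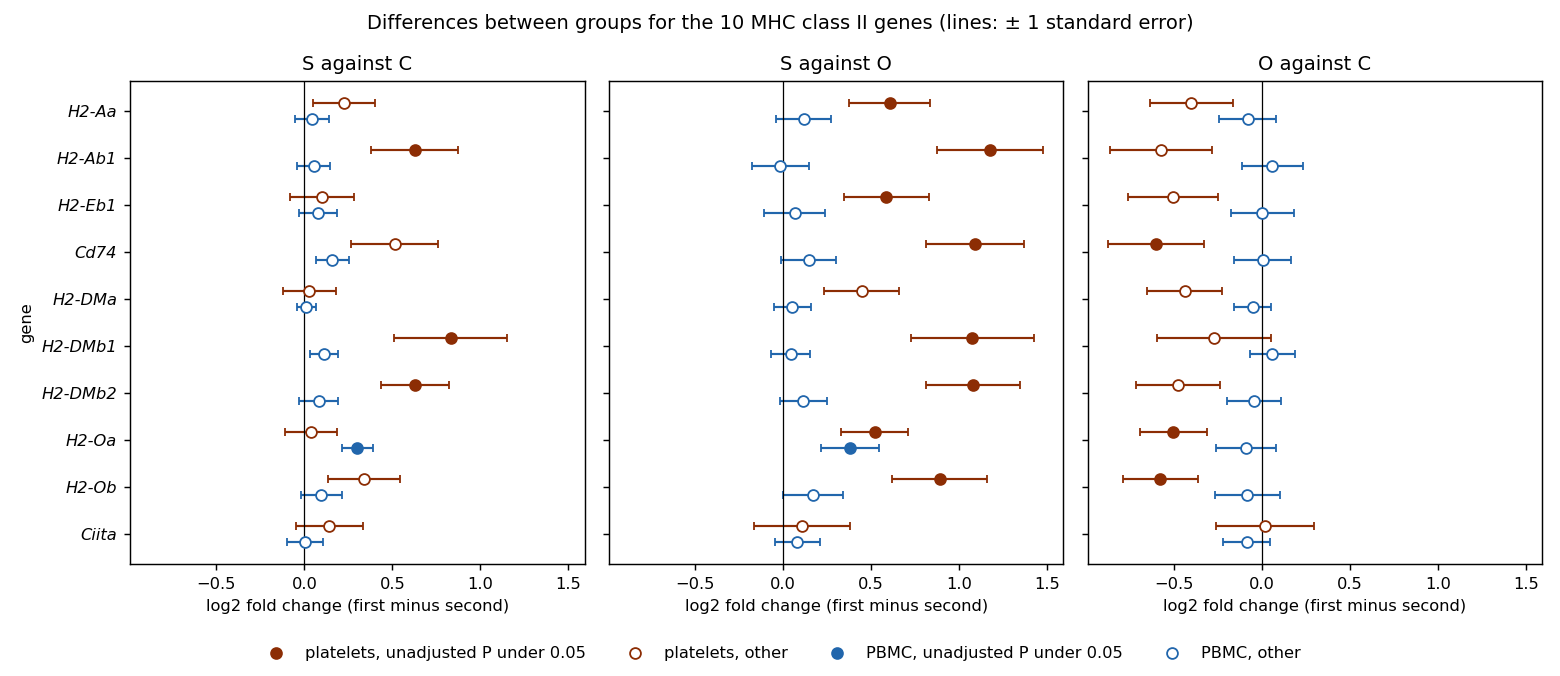
Log2 fold change (x axis, first group minus second) of the 10 MHC class II genes in platelets (brown) and PBMC (blue) for S against C, S against O and O against C. Lines give ± 1 standard error, and filled points an unadjusted P under 0.05 by edgeR. In platelets 8 genes pass between S and O and 3 in each of the other comparisons, and in PBMC *H2-Oa* alone passes, in the comparisons of S group.

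With all 3 groups in one fit 5 members were lower in O than in C group (beside 6.87% of all genes called), and by voom 5 were higher in S than in C group (beside 18.2%). Single libraries moved these counts too. Of the calls between S and C, that of *H2-Ab1* was lost in 5 of the 10 fits that left out a library (without C replicate 2 or 5 or S replicate 1, 3 or 5) and that of *H2-DMb1* in 2. Of those between O and C, the call of *Cd74* was lost in 8 of 10 fits, that of *H2-Oa* in 3 and that of *H2-Ob* in 1. Of those between S and O, the calls of *H2-Eb1* and *H2-Aa* were lost in 3 and 2 fits and the other 6 in none. Between S and C, leaving out S replicate 5 left 1 member past the threshold, *H2-DMb2* (beside 5.64% of all genes). Between O and C, leaving out O replicate 3 gave 8 members (beside 6.02% of all genes), and leaving out O replicate 2, O replicate 4 or C replicate 3 gave 1 (beside 7.93%, 4.14% and 4.67%). Between S and O the count stayed between 6 and 9, and it was 9 without O replicates 1 and 5, an alternative chosen after seeing the data, which left 1 member (*H2-Ob*) between O and C.

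In PBMCs few differences of the members between groups passed the threshold. *H2-Oa* was the one member past the threshold: its libraries held 27.4, 27.9, 33.1, 27.3 and 26.6 CPM in C group, 35.3, 37.9, 30.7, 37.3 and 33.7 CPM in S group, and 16.3, 25.4, 25.4, 24.0 and 37.9 CPM in O group. Of the S libraries, 4 lay above all of C group, whose replicate 3 was high. *H2-Oa* differed by 0.30 ± 0.09 (log2, SE) between S and C (unadjusted P = 0.00549, adjusted P = 1) and by 0.38 ± 0.16 between S and O (unadjusted P = 0.0402, adjusted P = 0.384). The first call was lost with all 3 groups in one fit (0.29 ± 0.14, unadjusted P = 0.0651, edgeR), and the second in 8 of the 10 fits that left out a library. With the mean level of the B cell genes in each library as a covariate, the first value was 0.21 (unadjusted P = 0.00685, edgeR) and the second 0.16 (unadjusted P = 0.118). In PBMC S against O, 11 of 11 T cell genes and 7 of 7 NK cell genes were higher and 7 of 7 erythroid genes lower, and their part in the value of *H2-Oa* was not tested. The calls of *H2-Oa* were 1 of 10 members, beside 2.64% of all genes between S and C (1.23% higher) and 12.2% between S and O (4.43% higher). Between O and C no member passed by edgeR at the unadjusted threshold, also none by DESeq2, beside 11.9% of all genes.

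For the other 9 members the PBMC differences were small. They lay from 0.00 to 0.16 between S and C, from -0.02 to 0.17 between S and O, and from -0.09 to 0.06 between O and C, with standard errors of 0.05 to 0.18. PBMC O replicate 1 held the lowest level of all 10 members and PBMC O replicate 5 the highest of 9, so that O group had the widest spread, as with *H2-Ab1* (636.6 ± 163.1 CPM in O, 652.9 ± 40.4 CPM in S, 630.6 ± 72.8 CPM in C group, SD, n = 5). PBMC O replicate 1 had 24.5% of its counts on hemoglobin genes. Leaving out PBMC C replicate 3, the highest library of C group for all members but *H2-DMa*, gave 4 members higher in S than in C group, while the share of all genes called went from 2.64% to 3.93%.

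The response of S against O differed between the tissues for 5 members at an unadjusted P under 0.05 by edgeR's interaction test, beside 13.6% of all genes (5.86% higher in platelets). The differences of the log2 changes, platelets minus PBMC, were 1.09 ± 0.32 for *H2-Ab1* (unadjusted P = 0.00227), 0.85 ± 0.27 for *H2-DMb2* (unadjusted P = 0.00438), 0.83 ± 0.30 for *Cd74* (unadjusted P = 0.0104), 0.93 ± 0.36 for *H2-DMb1* (unadjusted P = 0.0149) and 0.60 ± 0.29 for *H2-Ob* (unadjusted P = 0.047). In the same test 6 of 15 B cell genes, 4 of 11 T cell genes, 3 of 10 monocyte genes and 2 of 7 erythroid genes had a higher change in platelets. Of 7 NK cell genes, 2 had a lower change, and the part of these genes in the members' values was not tested. The adjusted P values of the 5 members ran from 0.201 to 0.357, and the call of *H2-Ob* was lost in 11 of 20 fits that left out a library, that of *H2-DMb1* in 1. The count was 8 without platelet O replicate 5 and 3 without platelet S replicate 5 (beside 12.6% and 12% of all genes). No member differed between tissues in S against C (5.38% of all genes did) or in O against C (6.59%) at an unadjusted P under 0.05. DESeq2 called 0 and 1 members there, and leaving out a library gave up to 3 (without platelet C replicate 1, beside 9.83% of all genes) and up to 6 (without platelet O replicate 5, beside 7.13%).

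The ratio of one member to another, which does not depend on library scaling, differed between the tissues for some pairs. In PBMC libraries *H2-Aa* stood to *H2-Ab1* as 0.889 ± 0.046 to 1 in CPM, from 0.785 to 0.942, with a coefficient of variation of 5.22% (SD, n = 15). In platelet libraries the same ratio was 1.66 ± 0.48, from 1.06 to 2.57, with a coefficient of variation of 28.9%, and no platelet library reached down to the PBMC range. *H2-Eb1* over *H2-Ab1* behaved alike, at 0.844 ± 0.037 in PBMC and 1.73 ± 0.54 in platelets, without overlap. *Ciita* over *H2-Ab1* was 0.210 ± 0.024 in PBMC (highest 0.254) and 0.631 ± 0.323 in platelets (lowest 0.256). Other pairs overlapped, as *Cd74* over *H2-Ab1* (2.37 to 3.14 in PBMC, 2.99 to 4.195 in platelets) and *H2-Ob* over *H2-Ab1* (0.357 to 0.470 and 0.295 to 0.671). *Cd74* over *Cd79a*, a chain of the B cell receptor, overlapped too, at 5.53 ± 0.47 in PBMC (lowest 4.72) and 4.24 ± 0.49 in platelets (highest 5.225). *H2-Ab1* over *Cd79a* was 2.045 ± 0.304 in PBMC and 1.241 ± 0.146 in platelets.

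Within platelets some ratios differed between groups before adjustment. *H2-Aa* over *H2-Ab1* was 1.30 ± 0.25 in S, 1.72 ± 0.39 in C and 1.96 ± 0.56 in O group (SD, 5 libraries each). The log2 difference of S against O was -0.56 (two-sided exact permutation test over 252 arrangements, P = 0.0476), and that of S against C was -0.39 (P = 0.0794, exact). In PBMC the same ratio was lower in O group, with every O library (0.785 to 0.873) below every S and C library, at the smallest P that 252 arrangements allow (0.00794, exact) against each. *Ciita* over *H2-Ab1* in platelets was 0.426 ± 0.191 in S and 0.871 ± 0.369 in O group (P = 0.0397, exact permutation test). None of the 96 ratio comparisons made held after Benjamini-Hochberg adjustment (lowest adjusted P = 0.304).

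**Figure D3:**
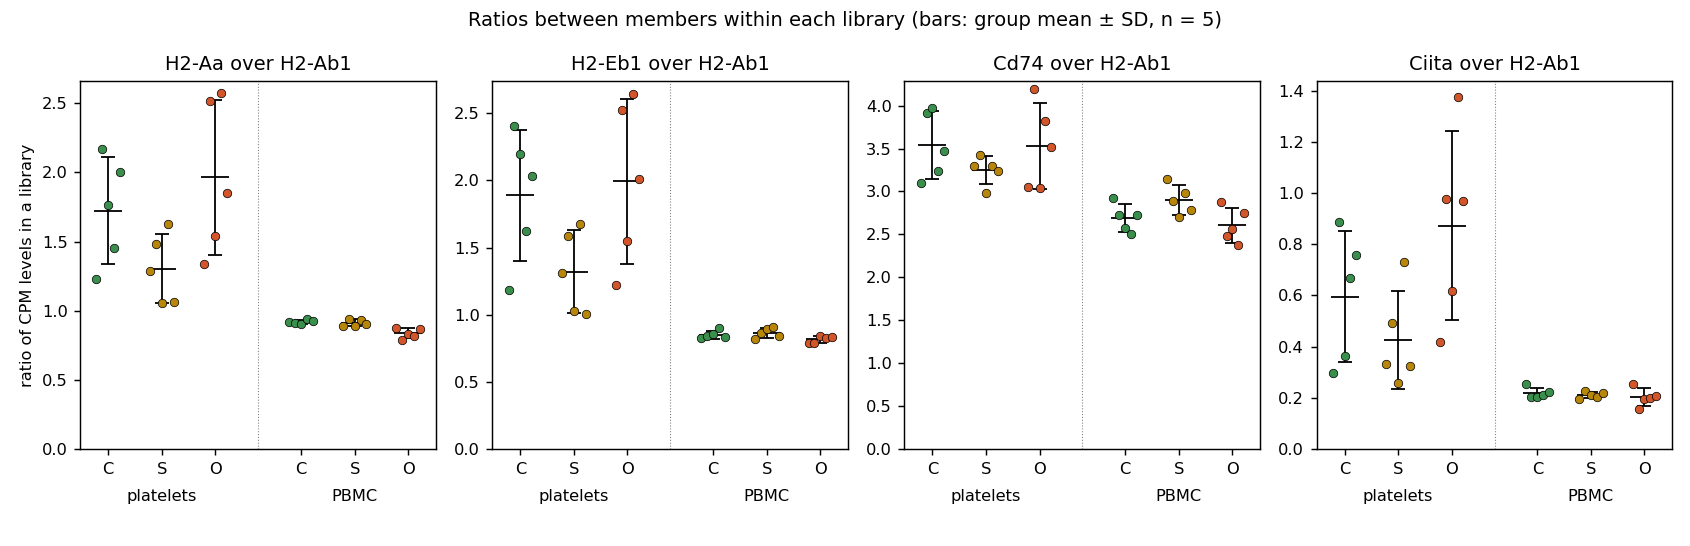
Ratio of the CPM level of *H2-Aa*, *H2-Eb1*, *Cd74* or *Ciita* to that of *H2-Ab1* in each library (y axis, no unit, linear from 0), by tissue and group, with points for libraries and bars for the mean ± SD of 5. PBMC ratios of *H2-Aa*, *H2-Eb1* and *Ciita* form a narrow band, at 0.889, 0.844 and 0.210 on average, and every platelet library lies above it, while the ratios of *Cd74* overlap between the tissues.

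Of 31 further genes of the class II pathway, 30 were tested in platelets. Between S and O, 5 were higher and 1 lower, and between S and C, 3 were higher and none lower, at an unadjusted P under 0.05, with median log2 differences of 0.11 and 0.07. Of all genes, 7.23% were higher between S and O and 4.29% between S and C, and the list was not tested as a whole. *Cd4*, the T cell coreceptor for class II molecules, averaged 32.5 ± 10.6 CPM in S, 20.2 ± 6.1 in C and 14.0 ± 3.2 in O group (SD, n = 5). It was higher in S than in O (1.28 ± 0.26 log2, unadjusted P = 0.00033) and than in C group (0.74 ± 0.25, unadjusted P = 0.00962). The costimulatory genes *Icosl* (1.11 ± 0.31 against O, 0.76 ± 0.27 against C) and *Cd40* (0.85 ± 0.35 and 0.79 ± 0.26) passed both comparisons too.

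Of 5 genes of endosomal processing, 2 were higher in S than in O group. They were *Ctss*, the protease that trims the invariant chain (0.68 ± 0.27 log2, unadjusted P = 0.0283), and *Ifi30*, a thiol reductase (0.76 ± 0.26, unadjusted P = 0.0115). Of 10 promoter factors none was higher, and *Spi1*, a myeloid and B cell factor, was lower in S than in O group (-0.55 ± 0.16, unadjusted P = 0.00539). The RFX subunits had log2 differences between S and O of -0.10 ± 0.24 (*Rfx5*), -0.06 ± 0.23 (*Rfxap*) and 0.17 ± 0.19 (*Rfxank*). *H2-Eb2*, a further class II beta chain, had 0.54 ± 0.29 (unadjusted P = 0.0843), and *H2-Ea-ps*, that alpha chain gene, was at 0.04 CPM on average and was not tested.

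B cell genes moved in platelets beside the class II genes. Of 15 B cell genes, 5 were higher in S than in C group, 10 were higher in S than in O group and 5 were lower in O than in C group, with none in the other direction, at an unadjusted P under 0.05, beside 4.29%, 7.23% and 2.17% of all genes. *Cd79a* averaged 295.8 ± 84.2 CPM in S, 187.5 ± 24.9 in C and 133.2 ± 37.5 in O group (SD, n = 5), and *H2-Ab1* over *Cd79a* was 1.23 ± 0.08, 1.26 ± 0.20 and 1.23 ± 0.17. Other ratios were less even: *H2-Aa* over *Cd79a* was lower in S group by log2 differences of -0.42 against C (P = 0.0159, exact permutation test) and -0.56 against O (P = 0.0317, exact), and *H2-Ab1* over the summed B cell genes had 0.60 between S and O (P = 0.0556, exact). *Cd79b* and *Ms4a1*, which encode surface proteins of B cells, were higher in S than in O group by 1.06 and 0.90 (log2). The B cell factor *Pax5*, by contrast, was 277.2 ± 67.7 CPM in S and 315.0 ± 135.3 CPM in O group (-0.10 ± 0.34 log2, unadjusted P = 0.768).

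The summed level of the 15 B cell genes in platelets ran from 1470 to 2603 CPM in S, 1449 to 1787 CPM in C and 740.2 to 1798 CPM in O group, and that of the 10 members from 2339 to 3493, 2033 to 2665 and 1070 to 2357 CPM. None of the B cell genes was at 0 in all libraries of a group. With the B cell score of each library as a covariate, 1 member passed between S and C, 0 between S and O and 0 between O and C, beside 4.4%, 8.08% and 5.71% of all genes in the same fits. The log2 differences between S and O ran from -0.35 to 0.55. The score was taken from the same libraries, so this fit cannot tell B cell content and group apart where they go together. What part B cells or other cells had in the platelet values was not tested. Of 11 T cell genes, 4 were higher in S than in C, 8 were higher in S than in O and 5 were lower in O than in C group, beside 4.29%, 7.23% and 2.17% of all genes. Of 7 NK cell genes, 1 was higher in S than in C, 3 were higher in S than in O and 1 was lower in O than in C group. Of 9 tested neutrophil genes 6 were lower in S than in O group, where 887 of all 13306 genes were lower. In O against C 4 of 9 were higher, where 347 of all 13270 genes were higher. Of the 8 dendritic cell genes, which had 26.4 to 75.9 CPM in sum in platelets, 2 were higher in S than in O, and of the 9 monocyte genes tested 4 were, beside 7.23% of all genes.

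**Figure D4:**
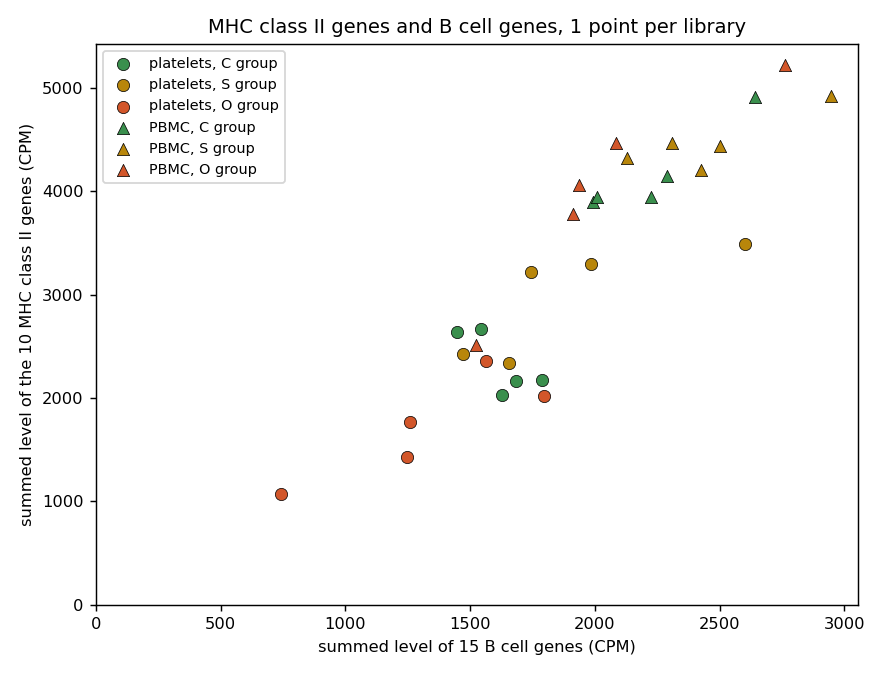
Summed level of the 10 MHC class II genes (y axis, CPM) against that of 15 B cell genes (x axis, CPM) in each of the 30 libraries, both axes linear from 0, with circles for platelets and triangles for PBMC, coloured by group. Platelet O replicate 1 is the lowest point (740.2 and 1070 CPM) and the PBMC libraries, apart from O replicate 1, lie above all platelet libraries on the y axis.

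Likeness to the class II set was described by correlation. Over the 15 platelet libraries, the Pearson r with the mean log2 level of *H2-Aa*, *H2-Ab1*, *H2-Eb1* and *Cd74* was highest outside the members, among 11822 protein coding genes, for *Cd79b* (0.954), *Cd3g* (0.953), *Fcmr* (0.950), *Ephx1* and *Cd6* (both 0.947), *Shisa5* (0.946), *Clec2d* (0.941), *Ly6d* (0.939), *Cd79a* (0.935) and *Txndc5* (0.929). *Cd79b* and *Cd79a* belong to the B cell receptor and *Cd3g* to that of T cells. Of the members outside those 4, *H2-DMb2* had 0.939, *H2-Ob* 0.879, *H2-DMa* 0.827, *H2-Oa* 0.717, *H2-DMb1* 0.702 and *Ciita* 0.268, and *Pax5* had 0.127. By rank (Spearman) the last 2 turned in sign, with -0.254 for *Ciita* and -0.407 for *Pax5*. The 15 B cell genes did not move as 1 set in platelets, with values from 0.110 to 0.954 by Pearson r and from -0.425 to 0.943 by rank. In PBMC *Ciita* had 0.813 and *Pax5* 0.859, and the genes most alike were *Parp1* (0.945), *Snx2* (0.944), *Fam76b* (0.940), *Blnk* (0.939), *Lgals8* (0.933), *Blk* (0.929), *Cse1l* and *Traf5* (both 0.920), *Txndc16* (0.917) and *Aff3* (0.915). The libraries share groups, depth and scaling factors, so these values describe them and carry no test.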

How the data were processed

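RNA of platelets and PBMCs was measured in 5 pooled libraries per group and tissue. The deposited values are raw counts per gene made by the authors, who discarded reads of low quality or with adapter or unknown bases before alignment (HISAT2) and counting (featureCounts). The submitters' processing notes list HISAT2 2.0.5, featureCounts 1.5.0-p3, DESeq2 1.16.1 and the build mm9. The files hold no positions, so symbols and positions come from GENCODE M21 (GRCm38), which holds 54409 of the 54532 IDs.

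Here, edgeR 4.0.16 in R 4.3.3 fitted each pair of groups alone with its quasi-likelihood test (filterByExpr, TMM). As in the study, an unadjusted P under 0.05 was the threshold, and Benjamini-Hochberg values over all genes stand beside it. The tissue comparison took in the 30 libraries together, with group as a covariate or in an interaction. These fits treated platelet and PBMC libraries as independent, though the methods take both fractions from the same blood. The P values of these fits make no allowance for mice that pools of both tissues may share. Standard errors are log2 fold changes divided by the root of the F statistic. All tests were two-sided, and P values measure the spread between pools.

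The members, gene lists and tests were chosen with earlier results of these data known. Named are the 10 members, pathway genes past the threshold in a platelet comparison of S group (at most 12), RFX subunits and class II chains, *Ms4a1*, *Cd79a*, *Cd79b* and *Pax5* (a further gene of the rule is not reported here) and the 10 genes most like the set. *Pf4* is named besides as the platelet marker. Same-numbered libraries deviated together in all 5 pairs of PBMC S and C (r from 0.318 to 0.593), where the block left 1 member called. Alternatives were RLE factors, DESeq2 1.42.0, no filter, voom with quality weights (limma 3.58.1), a replicate block, one fit of 3 groups, a B cell score covariate and leaving out libraries. Counting depth and 5 pools per group limit the precision.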

Additional observations from a re-analysis of the deposited data

Results flagged for a closer look

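In each group of 5 libraries the highest and lowest value of every member was compared with its nearest neighbour, by Dixon's test at the 95% level, which chance passes in about 1 of 20 groups. PBMC C replicate 3 was far above the rest of C group for *H2-Aa* (686.0 CPM, next 567.2), *H2-Ab1* (760.4 CPM, next 603.3), *H2-Oa* (33.1 CPM, next 27.9) and *H2-Ob* (339.4 CPM, next 268.8). These 4 values belong to 1 library and are not independent. In platelets, C replicate 3 was high for *H2-Eb1* (551.8 CPM, next 411.3) and C replicate 1 for *H2-DMb1* (30.9 CPM, next 15.3).

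The change of S against O differed between platelets and PBMC, by edgeR's interaction term at an unadjusted P under 0.05, for *H2-Ab1* (log2 difference 1.09, unadjusted P = 0.00227), *Cd74* (0.83, unadjusted P = 0.0104), *H2-DMb1* (0.93, unadjusted P = 0.0149), *H2-DMb2* (0.85, unadjusted P = 0.00438) and *H2-Ob* (0.60, unadjusted P = 0.047). Of all genes, 13.6% passed (5.86% higher in platelets). In the same test 6 of 15 B cell genes, 4 of 11 T cell genes, 3 of 10 monocyte genes and 2 of 7 erythroid genes had a higher change in platelets. Of 7 NK cell genes, 2 had a lower change, and the part of these genes was not tested. None of the 5 members had an adjusted P under 0.201, and the call of *H2-Ob* was lost in 11 of 20 fits that left out a library.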

How the results depend on the processing

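The count of members called is given by comparison. Percentages in brackets are the shares of all genes called. Platelet S against C (3 members, 6.42%) gave 1 with the B cell score as covariate (4.4%), 5 by voom (18.2%) and 1 to 4 without 1 library (4.14% to 11.4%). Platelet S against O (8, 13.9%) gave 0 with the B cell score (8.08%) and 6 to 9 without 1 library (9.6% to 16%). Platelet O against C (3) gave 7 with the replicate block (beside 6.5% of all genes, 4.79% without it), 0 with the B cell score (5.71%) and 5 with all 3 groups in one fit (6.87%). It gave 1 without O replicates 1 and 5 (3.62%, chosen after seeing the data), and 1 to 8 without 1 library (3.47% to 7.93%). PBMC S against C (1, 2.64%) gave 2 by voom (4.34%), 0 with all 3 groups in one fit (2.06%) and 1 to 4 without 1 library (2.13% to 3.93%). PBMC S against O (1, 12.2%) gave 0 with the B cell score (3.79%) and 0 to 1 without 1 library (9.05% to 18%). Platelet against PBMC (8, 81%) gave 8 to 9 without 1 library. The tissue difference gave 1 in S against C without the filter (0 in the fit reported, 0 to 3 without 1 library), 3 to 8 without 1 library in S against O (5), and 1 in O against C by DESeq2 (0, and 0 to 6 without 1 library). The fits reported called 5.38%, 13.6% and 6.59% of all genes in these 3 comparisons. The cause of these shifts was not tested.

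Reversed values were all under 0.4 in size on the log2 scale. With the B cell score, *H2-DMa* in platelet S against C was -0.0085 and *Ciita* in platelet S against O -0.35. By voom *Ciita* was -0.086 in S against C, -0.071 in S against O and -0.067 in O against C, and with the replicate block -0.047 in O against C. Between platelets and PBMC, *H2-Oa* was 0.048 and *Ciita* -0.070 in C group alone, and *Ciita* -0.011 with the replicate block. For the tissue difference, *H2-DMa* in S against C was 0.016 with RLE, 0.064 without the filter and 0.016 by DESeq2, and *Ciita* in S against O 0.039, 0.076 and 0.038. Leaving out 1 library turned some values: in platelet S against C, *H2-DMa* (-0.031 to 0.14) and *H2-Oa* (-0.049 to 0.11); in platelet S against O, *Ciita* (-0.11 to 0.23); in platelet O against C, *H2-DMb1* (-0.43 to 0.062) and *Ciita* (-0.096 to 0.22); in PBMC O against C, *H2-Oa* (-0.26 to 0.016). The same held between platelets and PBMC for *Ciita* (-0.0053 to 0.19), for the tissue difference of S against C in *H2-Eb1* (-0.076 to 0.11), *H2-DMa* (-0.069 to 0.075) and *Ciita* (-0.0026 to 0.22), and for that of S against O in *H2-Oa* (-0.17 to 0.29) and *Ciita* (-0.23 to 0.21). None of these had passed its threshold in the fit reported. Every same-numbered pair correlated above 0.1 in PBMC S and C alone. In platelet O and C 4 of 5 pairs did (r from -0.0545 to 0.434), in PBMC S and O 4 of 5 (0.0953 to 0.418), in PBMC O and C 4 of 5 (0.034 to 0.457), and in O group between tissues 4 of 5 (0.0631 to 0.669), so a partial pairing there is possible. O pools held 3, 4, 5, 3 and 5 mice in replicate order in both tissues, and the methods take both fractions from the same blood. Same-numbered O pools of the tissues may thus share mice, though the labels name no pairing. Apart from platelet O against C, the replicate block moved no count of members by over 1.5 times. Over all genes, platelet S against C called 852 genes, and 2410 by voom and 2097 without the filter.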
